A study of Danio rerio with 10 samples.

Results

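Chromatin modifier and Polycomb genes were followed in the kidney marrow of zebrafish that overexpress human CREB. The members were taken by symbol: every gene whose single symbol in the platform annotation begins with hdac, sirt, kdm, kmt, setd, dnmt, tet and a digit, smarc, chd and a digit, ezh, suz12, eed, bmi1, cbx, kat and a digit, or arid. This gave 76 genes of the 8793 measured, and each gene is given by 1 probe set, that of the highest mean signal over the 10 arrays. By class they were 21 writers (5 kmt, 8 setd, 4 dnmt and 4 kat genes), 23 erasers (8 hdac, 3 sirt and 12 kdm genes), 19 remodellers (10 smarc, 6 chd and 3 arid genes) and 13 Polycomb and chromobox genes. No tet gene had a probe set with a single symbol. The symbol rule uses no measured value.

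The arrays came from 5 fish overexpressing the human CREB protein and from 5 control fish, with 5 animals per group stated in the design text. CREB is a transcription factor that responds to cyclic AMP. Adult zebrafish make their blood cells in the kidney marrow, and the series title names leukaemia and a block of myeloid maturation as its subject. The promoter that drives the transgene, the cells in which it is active, the age of the fish and the genotype of the controls beyond that word are not given in the sources used here. The zebrafish probe sets do not measure the human transgene. Each value below is a log2 signal on the scale of the deposited table, and each difference is CREB minus control.

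DNA in the nucleus is wound on histones, and the enzymes studied here set how accessible it is. Writers add methyl or acetyl groups to histones or methyl groups to DNA, erasers remove them, and remodellers spend ATP to slide or eject nucleosomes. Polycomb proteins work in a pair of complexes, one that methylates histones through Ezh2 and one that ubiquitinates them through a Ring protein with Bmi1, and they keep developmental genes silent. In blood, Bmi1 is known in the mouse for the self-renewal of haematopoietic stem cells, and KMT2A is often rearranged in human leukaemias. CREB itself acts by recruiting the histone acetyltransferase Crebbp. Many of these genes exist in zebrafish as a and b copies left by the genome duplication of teleost fish.

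Some arrays stood apart. Control arrays 3 and 5 had gonad and egg markers at mean log2 signals of 9.18 and 9.14, against 5.25 to 7.18 on the CREB arrays and 5.35 to 7.66 on the other control arrays. Control array 4 (7.66) and CREB array 4 (7.18) were the next highest, and no other array was above 6.01. Control arrays 4 and 5 had exocrine pancreas markers at 9.95 and 11.05, against 5.94 to 6.74 on the CREB arrays. CREB arrays 3 and 5 had a gapdh 5' control signal of 6.50 and 6.74, against 9.54 to 10.7 on the others. Marrow markers were present in both groups (10 of 13 measured): the haemoglobin gene hbaa1 averaged 14.46 in CREB fish and 14.50 in control fish, and the neutrophil lysozyme gene lyz 13.48 and 14.07. Skeletal muscle markers averaged 7.49 to 10.05 on CREB arrays and 4.88 to 5.44 on control arrays (14 of 15 higher), kidney tubule markers averaged 9.05 to 10.31 and 7.86 to 8.74 (6 of 8 higher), neutrophil markers 9.23 to 10.44 and 10.38 to 11.38 (5 of 10 lower) and proliferation markers 6.85 to 7.96 and 7.44 to 8.63 (7 of 20 lower, 1 higher). In whole tissue, fewer cells of a type and less RNA per cell cannot be told apart.

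Of the 76 genes, 8 were lower in CREB fish, 8 were higher and 60 were not past the threshold of 0.05 on the adjusted p (limma). That is 10.5% in each direction, beside 9.09% lower and 19.3% higher among all genes. The lower genes were kat7b, kmt2ba, hdac3, sirt6, smarcb1b, bmi1a, bmi1b and cbx1a. The higher genes were kmt2a, kmt2e, kdm2aa, kdm4ab, kdm5c, kdm6al, chd4b and cbx6b. The arrays of both groups did not overlap for 7 lower and 5 higher members, all of them among the 16, beside 5.62% and 15.3% of all genes. The median log2 difference was 0.04 over the members and 0.10 over all genes. After quantile, median and cyclic loess scaling the median over all genes was 0.01, 0.04 and -0.05, and after cyclic loess 10.8% of all genes were lower and 9.00% higher. Under these 3 scalings 9, 10 and 9 of the 76 genes were lower and 5, 1 and 2 were higher. Of all genes, 9.14% were lower and 10.8% higher with quantile scaling, and 10.1% and 11.3% with median scaling.

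**Figure D1:**
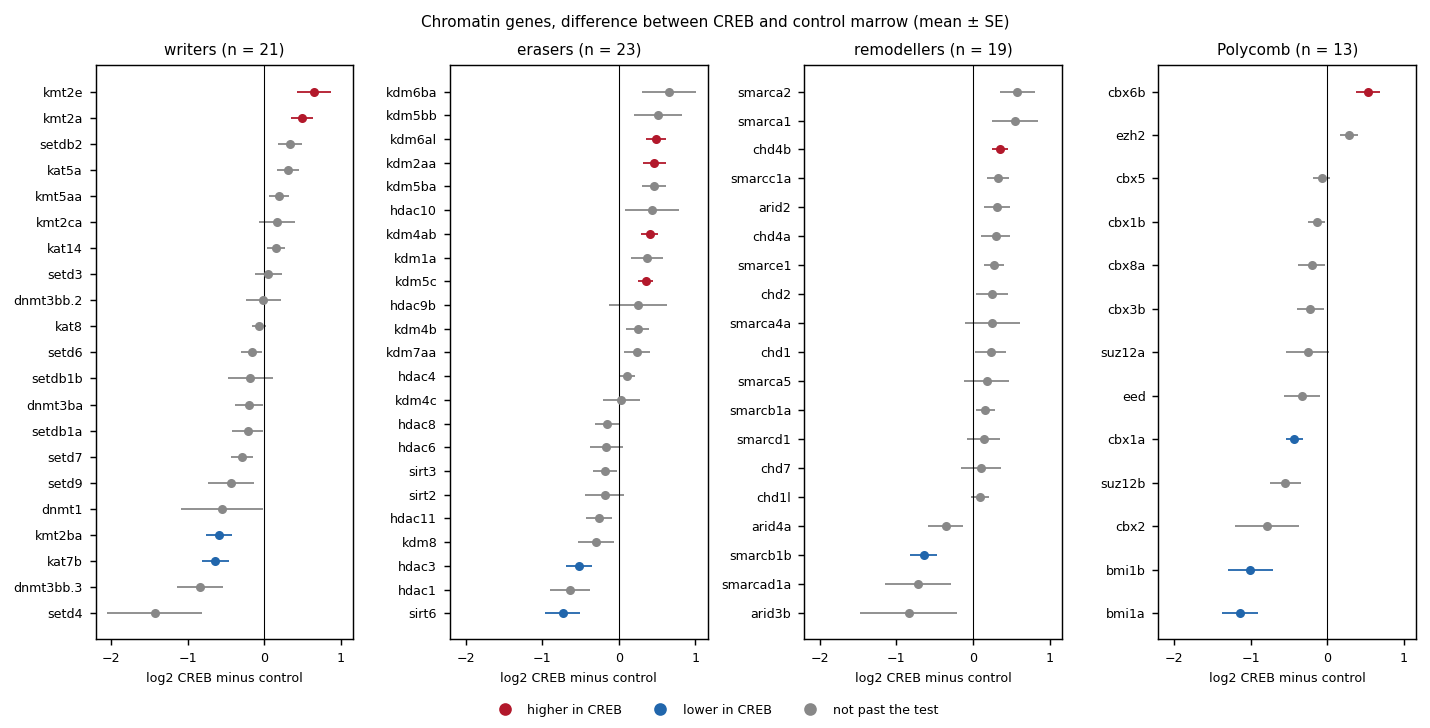
The log2 difference, CREB minus control, of each of the 76 genes with its standard error, grouped by class. The 16 genes past the test are marked, the lowest at -1.13 (bmi1a) and the highest at 0.65 (kmt2e), and 11 of the 13 Polycomb and chromobox genes lie below 0.

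All 8 lower genes had control arrays 3 and 5 above the other 8 arrays, as did 334 of the 799 genes that were lower over the whole table (41.8%). With control arrays 3, 4 and 5 left out, so that 2 controls were left, none of the 76 genes was called (limma, lowest adjusted p = 0.0534), while 14 had an unadjusted p under 0.05 (18.4%, beside 29.5% of all genes), 7 of them among the 16 called. Over all genes, 1.58% were lower and 1.05% higher in that fit. All 16 called genes kept their sign there, with differences between 0.45 and 1.35 times those over 10 arrays (median 0.69). For the 12 of them whose groups did not overlap, the sign was fixed in advance, since leaving out arrays could not change it. Without CREB arrays 3 and 5, bmi1a, cbx1a and kdm2aa were still called, while 3.10% of all genes were lower and 9.63% higher. With the mean level of the proliferation markers as a covariate, kdm5c and kdm6al were still called and none of the lower genes was. That level was highest on control arrays 3 and 5 (8.62 and 8.63), as was the level of the gonad and egg markers (9.18 and 9.14). Proliferation and gonad RNA therefore cannot be told apart by this covariate. Calls were fewer over the whole table too, with 2.48% of all genes lower and 3.25% higher. All 16 signs were the same as without the covariate. The differences with the covariate were 0.31 to 1.45 times those without it (median 0.58). The part that gonad, muscle, kidney tubule or neutrophil RNA had in these differences was not tested.

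Polycomb and chromobox genes mostly had negative differences. Of 13, 3 were lower (23.1%, beside 9.09% of all genes) and 1 was higher (7.69%, beside 19.3%). A negative difference was seen in 11, beside 3852 of all 8793 genes. It was seen in 8 without control arrays 3, 4 and 5, and in 8 with the proliferation covariate. The median log2 difference was -0.26 (-0.14 without control arrays 3, 4 and 5, and -0.15 without CREB arrays 3 and 5). Without the 4 heterochromatin protein 1 genes (cbx1a, cbx1b, cbx3b and cbx5), 2 of 9 were lower (22.2%), 1 was higher (11.1%) and 7 had a negative difference. The 2 genes with the largest called differences of all 76 were the copies of bmi1, whose product is the partner of the Ring ubiquitin ligase in the ubiquitinating complex.

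Signals of bmi1a were 8.18, 7.60, 7.97, 8.02 and 7.50 on CREB arrays 1 to 5, and 8.58, 8.57, 9.47, 8.78 and 9.55 on control arrays 1 to 5. Every CREB array lay below every control array, and control arrays 3 and 5 were the highest. The log2 difference was -1.13 ± 0.24 (SE), a level 0.455 times that of control fish (limma, adjusted p = 0.00973). It was called with any 1 array left out (limma, adjusted p at most 0.0253). Without control arrays 3, 4 and 5 the difference was -0.72, and with the proliferation covariate -0.65 (limma, adjusted p = 0.102 and 0.114). For bmi1b the signals were 6.84, 6.97, 7.40, 7.32 and 6.95 on CREB arrays and 7.52, 7.59, 8.97, 7.79 and 8.64 on control arrays. Again the groups did not overlap and control arrays 3 and 5 stood highest. Its log2 difference was -1.01 ± 0.29 (SE; limma, adjusted p = 0.0284), -0.46 without control arrays 3, 4 and 5 and -0.38 with the covariate (limma, adjusted p = 0.169 and 0.363). It was not called when CREB array 1, 2 or 5 or control array 5 was left out (limma, adjusted p up to 0.0627), and with cyclic loess scaling (limma, adjusted p = 0.0523).

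The chromodomain genes of the ubiquitinating complex had differences of both signs. The gene cbx6b, which encodes one of its histone readers, read 5.81, 5.42, 5.22, 5.03 and 5.58 on CREB arrays, and 4.91, 4.97, 4.65, 4.89 and 4.99 on control arrays. All CREB arrays were above all control arrays, and the means of 5.41 in CREB fish and 4.88 in control fish lay below the array medians of 5.71 to 5.92. It was higher by 0.53 ± 0.15 on the log2 scale (standard error; limma, adjusted p = 0.0274), a call lost without CREB array 1 or 5 or control array 1, 3 or 4. The call was also lost under all 3 scalings: the difference was 0.36 with quantile, 0.47 with median and 0.27 with cyclic loess scaling (limma, adjusted p = 0.102, 0.057 and 0.148). Tag control probe sets, which match no zebrafish gene, averaged 4.33 on CREB arrays and 4.08 on control arrays, and their part in the rises of dim genes was not tested. Its relatives cbx2 and cbx8a, which encode readers of the same kind, had differences of -0.79 and -0.21 and did not pass. For cbx2, control arrays 3 and 5 read 7.27 and 6.77, and all other arrays lay between 4.72 and 5.66.

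The methylating complex gave no call over the deposited values. Its enzyme gene ezh2 read 8.39, 8.77, 8.35, 8.76 and 8.63 on CREB arrays, against 8.21, 8.25, 8.34, 8.32 and 8.36 on control arrays. The groups overlapped by 1 control array, which lay above the lowest CREB array. The log2 difference was 0.28 ± 0.11 (SE; limma, adjusted p = 0.0817), and it passed with quantile scaling and with array weights (limma, adjusted p = 0.0489 and 0.0457). For the scaffold gene suz12b the signals were 6.74, 6.46, 5.58, 6.59 and 6.15 on CREB arrays, and 6.67, 6.89, 6.99, 6.77 and 6.95 on control arrays. The lowest were CREB arrays 3 and 5, and without them the difference of -0.55 ± 0.20 (SE; limma, adjusted p = 0.0648) was -0.26. It passed with median and cyclic loess scaling, at -0.61 each (limma, adjusted p = 0.0405 and 0.0458). Its copy suz12a differed by -0.26 ± 0.28 and eed, the subunit that binds the methyl mark, by -0.33 ± 0.24 (SE; limma, adjusted p = 0.479 and 0.293). Without control arrays 3, 4 and 5 both were positive, at 0.19 and 0.10.

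The heterochromatin protein 1 genes, chromobox genes outside Polycomb that bind silent chromatin, all had negative differences (4 of 4), and 1 passed. In CREB fish cbx1a read 8.49, 8.43, 8.65, 8.67 and 8.75, and in control fish 9.02, 8.90, 9.16, 8.87 and 9.21. The groups did not overlap and the spread within each was small. The difference was -0.43 ± 0.11 on the log2 scale (standard error; limma, adjusted p = 0.0192), and it was called with any 1 array left out (limma, adjusted p at most 0.0462). The call was lost with quantile and cyclic loess scaling and without control arrays 3, 4 and 5 (limma, adjusted p = 0.0754, 0.101 and 0.161). The differences of cbx1b, cbx3b and cbx5 were -0.14, -0.22 and -0.07 and did not pass. The last of these, cbx5, had mean signals of 9.36 ± 0.16 in CREB fish and 9.44 ± 0.09 in the controls (SD, n = 5 each).

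**Figure D2:**
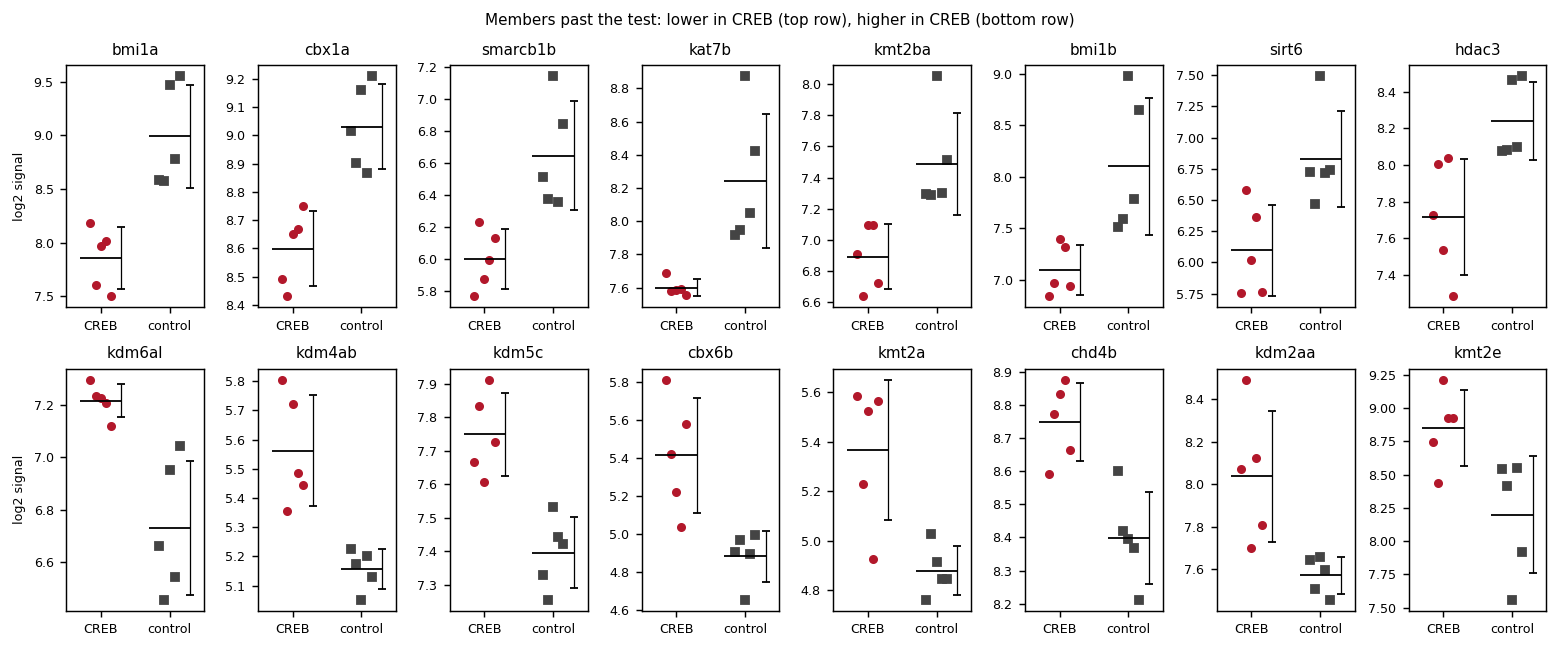
The log2 signal of the 16 called genes on each of the 5 CREB and 5 control arrays, with the 8 lower genes in the upper row and the 8 higher genes in the lower row. Each point is 1 array, the horizontal line is the mean of the group and the bar its SD. In bmi1a and bmi1b all CREB points lie below all control points, while those of sirt6 overlap.

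Histone demethylase genes, among the erasers, mostly had positive differences. Of 12 kdm genes 4 were higher (33.3%, beside 19.3% of all genes) and none lower. Positive differences were seen in 11 (kdm8 was the exception), beside 4941 of all 8793 genes. The median log2 difference was 0.39, beside 0.10 over all genes. Under quantile, median and cyclic loess scaling 10 of 12 were positive each time, with medians of 0.42, 0.32 and 0.35. Of the 12, 3, 1 and 1 were called higher, beside 10.8%, 11.3% and 9.00% of all genes. Over all 23 erasers 4 were higher and 2 were lower (17.4% and 8.70%, near the 19.3% and 9.09% of all genes).

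The gene kdm6al encodes a relative of Utx, a demethylase that removes the methyl mark set by the Ezh2 complex. Its signals were 7.30, 7.23, 7.23, 7.21 and 7.12 on CREB arrays, and 6.66, 6.46, 6.95, 6.54 and 7.04 on control arrays. The groups did not overlap, and control arrays 3 and 5 were the controls nearest to the CREB arrays. It was higher by 0.49 ± 0.13 on the log2 scale (standard error; limma, adjusted p = 0.0217). Both of its other probe sets were higher too, by 0.31 and 0.37 (limma, adjusted p = 0.0438 and 0.0381). The difference was 0.66 without control arrays 3, 4 and 5 (limma, adjusted p = 0.0534) and 0.71 with the proliferation level as a covariate (limma, adjusted p = 0.0314). Leaving out control array 4 alone lost the call, as did cyclic loess scaling (limma, adjusted p = 0.0518 and 0.051).

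For kdm5c, which removes methyl groups from a mark of active promoters, CREB arrays read 7.67, 7.83, 7.61, 7.91 and 7.73 and control arrays 7.33, 7.26, 7.53, 7.44 and 7.42. No control array reached the lowest CREB array. The difference was 0.35 ± 0.10 (SE; limma, adjusted p = 0.0271), 0.46 without control arrays 3, 4 and 5, and 0.50 with the covariate (limma, adjusted p = 0.0405). The call was lost without CREB array 2 or 5 or control array 1, 2, 4 or 5 (limma, adjusted p up to 0.0584), and with median and cyclic loess scaling (limma, adjusted p = 0.0624 and 0.0527).

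The gene kdm4ab, whose product acts on methyl marks of silent chromatin, read 5.80, 5.35, 5.72, 5.49 and 5.45 on CREB arrays and 5.23, 5.17, 5.05, 5.20 and 5.13 on control arrays. It did not overlap between groups and was dim in both. Its difference was 0.41 ± 0.11 on the log2 scale (standard error; limma, adjusted p = 0.0237), a call lost without CREB array 3 or control array 3 or 5. The call was lost under all 3 scalings as well, where the difference was 0.27 with quantile, 0.34 with median and 0.17 with cyclic loess scaling (limma, adjusted p = 0.102, 0.0664 and 0.214). The CpG-island binding demethylase gene kdm2aa read 8.07, 8.49, 7.70, 8.12 and 7.81 on CREB arrays, and 7.64, 7.51, 7.66, 7.60 and 7.46 on control arrays. The groups did not overlap, by a gap between CREB array 3 and control array 3. It was higher by 0.47 ± 0.15 (SE; limma, adjusted p = 0.0390), and by 0.66 without CREB arrays 3 and 5 (limma, adjusted p = 0.0237). Leaving out CREB array 1, 2 or 4, or any 1 control array, lost the call, and so did median scaling (limma, adjusted p = 0.0639).

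Demethylase genes that did not pass included kdm1a, which encodes the flavin-dependent demethylase Lsd1, with a difference of 0.37 ± 0.21 (SE; limma, adjusted p = 0.197), and kdm5ba at 0.46 ± 0.16 (SE; limma, adjusted p = 0.0513). The mean over the 12 kdm genes lay between 6.52 and 6.81 on CREB arrays and between 6.23 and 6.44 on control arrays. In kdm8 control arrays 3 and 5 read 7.13 and 7.32, and the other 8 arrays lay between 6.09 and 6.51.

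**Figure D3:**
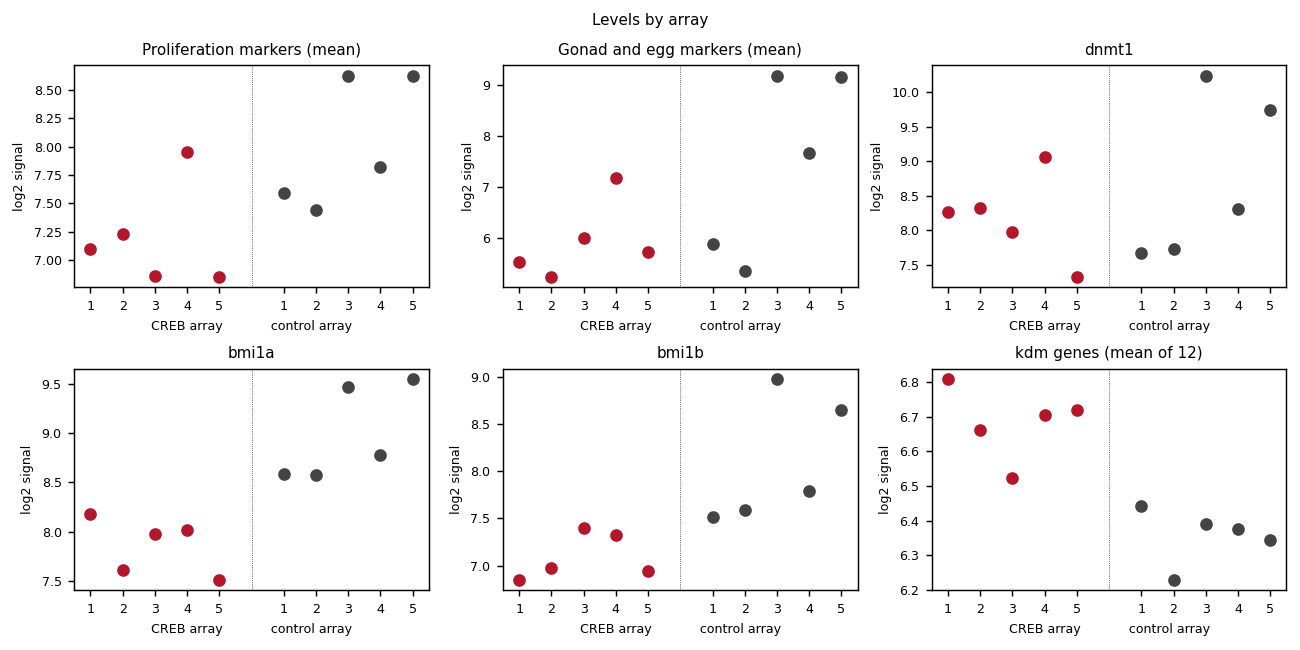
Mean log2 level per array of the proliferation markers, the gonad and egg markers and the kdm genes, and the log2 signals of dnmt1, bmi1a and bmi1b. Control arrays 3 and 5 are the highest in both marker lists and in dnmt1, bmi1a and bmi1b, while the kdm mean of every CREB array (6.52 to 6.81) lies above that of every control array (6.23 to 6.44).

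Of 11 hdac and sirt genes, which encode deacetylases, 2 were lower (18.2%, beside 9.09% of all genes) and none was higher (beside 19.3%). Negative differences were seen in 8, beside 3852 of all 8793 genes. The catalytic subunit gene of the Ncor corepressor, hdac3, read 7.73, 8.00, 7.54, 8.04 and 7.28 on CREB arrays and 8.08, 8.08, 8.46, 8.10 and 8.48 on control arrays. The groups did not overlap, although CREB arrays 2 and 4 came close to the lowest control arrays. The difference was -0.52 ± 0.17 on the log2 scale (standard error; limma, adjusted p = 0.0418). It lost the call when any 1 array other than CREB array 2 or 4 was left out, but kept it under all 3 scalings. CREB arrays 3 and 5 were the lowest, and without them the difference was -0.32 (limma, adjusted p = 0.177). With the proliferation covariate it was -0.16 (limma, adjusted p = 0.502). Another, dim probe set of hdac3, at means of 4.30 in CREB and 4.47 in control fish, differed by -0.18 (limma, adjusted p = 0.347).

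For the NAD-dependent deacetylase gene sirt6 the CREB arrays read 5.76, 6.58, 6.02, 6.36 and 5.76, and the control arrays 6.72, 6.47, 7.49, 6.72 and 6.74. CREB array 2 lay above control array 2, and control array 3 stood far above the rest. The difference was -0.73 ± 0.22 (SE; limma, adjusted p = 0.0347), and -0.57 to -0.85 with 1 array left out, of which 7 ended the call. The gene hdac1, a catalytic subunit of several corepressor complexes, read 9.60, 9.62, 8.60, 9.84 and 8.49 on CREB arrays, and 9.81, 9.92, 9.91, 9.91 and 9.79 on control arrays. Its 2 low values were those of CREB arrays 3 and 5, which had the low gapdh 5' signal. The difference of -0.64 ± 0.26 did not pass (SE; limma, adjusted p = 0.0870), and without both arrays it was -0.18. Mean signals of hdac11 and sirt3 were no higher in either group than the highest level of the tag control probe sets (4.46).

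Writers were split between directions, with 2 lower, 2 higher and 17 not past the test. That is 9.52% each way, beside 9.09% and 19.3% of all genes. The negative differences numbered 13 of 21, beside 3852 of all 8793 genes. The median over the writers was -0.17 (-0.06 without control array 3, -0.07 without CREB array 1, -0.09 without control array 1, and -0.10 without CREB array 5 or control array 5). Both directions occurred within the kmt genes, several of which methylate histones at active promoters.

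The gene kmt2ba, of the trithorax group that opposes Polycomb, read 6.91, 6.64, 7.10, 7.09 and 6.72 on CREB arrays and 7.29, 7.29, 8.05, 7.30 and 7.51 on control arrays. There was no overlap, and control array 3 was the highest. The log2 difference was -0.60 ± 0.17 (SE; limma, adjusted p = 0.0282), and -0.40 without control arrays 3, 4 and 5. Leaving out CREB array 1, 2 or 5 or control array 5 ended the call. Its relative kmt2a, the gene of the protein often called Mll, read 5.58, 5.23, 5.53, 4.93 and 5.56 on CREB arrays and 4.76, 5.03, 4.91, 4.84 and 4.85 on control arrays. CREB array 4 fell within the range of the controls. It was higher by 0.49 ± 0.14 (SE; limma, adjusted p = 0.0289), and 7 of the 10 arrays ended the call when left out. So did all 3 scalings, with 0.32 for quantile, 0.43 for median and 0.22 for cyclic loess scaling (limma, adjusted p = 0.129, 0.0736 and 0.211).

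The gene kmt2e encodes a related protein with SET and PHD domains. It read 8.75, 8.44, 9.21, 8.93 and 8.93 on CREB arrays and 8.54, 8.42, 7.56, 8.55 and 7.92 on control arrays. The groups overlapped, and the lowest values were those of control arrays 3 and 5. Its difference was 0.65 ± 0.22 (SE; limma, adjusted p = 0.0480), and 0.37 without control arrays 3, 4 and 5. It was not called under any of the 3 scalings, and its other probe set, with a difference of 0.32, did not pass (limma, adjusted p = 0.380).

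Among the acetyltransferase genes, kat7b, whose human counterpart works at replication origins, read 7.69, 7.58, 7.59, 7.59 and 7.55 on CREB arrays. On control arrays it read 7.92, 7.95, 8.87, 8.05 and 8.42. The CREB arrays were close together and all below the controls. The difference was -0.64 ± 0.18 on the log2 scale (standard error; limma, adjusted p = 0.0252), and -0.33 without control arrays 3, 4 and 5 (limma, adjusted p = 0.140). The call was lost without CREB array 5 or control array 5, and with cyclic loess scaling (limma, adjusted p = 0.0636).

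The DNA methyltransferase genes all had negative differences (4 of 4) and none passed over the deposited values. The de novo methyltransferase gene dnmt3bb.3, named after its values were seen, differed by -0.84 ± 0.30 (SE; limma, adjusted p = 0.0582), with control arrays 3 and 5 at 6.05 and 5.96 and no other array above 4.78. It was called lower with each of the 3 scalings and with the trended robust variance, and its difference was -0.31 without control arrays 3, 4 and 5. In that fit dnmt3bb.2 was positive, at 0.34, while over 10 arrays it differed by -0.01. Its mean signals, 3.91 in CREB fish and 3.93 in control fish, were below the highest level of the tag control probe sets (4.46). The maintenance methyltransferase gene dnmt1 read 8.27, 8.32, 7.98, 9.07 and 7.32 on CREB arrays and 7.67, 7.73, 10.25, 8.31 and 9.75 on control arrays. Control arrays 3 and 5 were above all others, and control arrays 1 and 2 lay below 4 of the 5 CREB arrays. The difference was -0.55 ± 0.54 over all arrays and 0.49 without control arrays 3, 4 and 5 (limma, adjusted p = 0.437 and 0.423). The histone methyltransferase gene setdb1b, which acts in silent chromatin, differed by -0.19 ± 0.29 (SE; limma, adjusted p = 0.635). The most negative difference of any member was that of setd4, named here after its values were seen, at -1.43 ± 0.62 (SE; limma, adjusted p = 0.0982). Control arrays 3 and 5 read 8.88 and 8.46 for it and no other array was above 6.62, and its difference was -0.10 without control arrays 3, 4 and 5.

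Remodellers gave 1 lower and 1 higher call among 19 genes (5.26% each, beside 9.09% lower and 19.3% higher among all genes). Positive differences numbered 15, beside 4941 of all 8793 genes. The median was 0.23 (0.14 without CREB array 4), beside 0.10 over all genes. All 6 chd genes and 8 of 10 smarc genes had positive differences. The 3 arid genes were placed in this class by their symbol and are also counted apart. Of these 3, 1 had a positive difference and none was called, and their median was -0.36. The gene chd4b, which encodes the ATPase of the NuRD remodelling and deacetylase complex, read 8.59, 8.77, 8.83, 8.87 and 8.66 on CREB arrays and 8.60, 8.42, 8.40, 8.37 and 8.21 on control arrays. Only control array 1 reached into the CREB range. It was higher by 0.35 ± 0.11 on the log2 scale (standard error; limma, adjusted p = 0.0332), a call lost with 8 of the 10 arrays left out in turn and with median scaling (limma, adjusted p = 0.116). Its copy chd4a differed by 0.30 ± 0.19 (SE; limma, adjusted p = 0.233).

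The core subunit gene of the BAF complex smarcb1b read 5.77, 6.23, 5.88, 5.99 and 6.13 on CREB arrays and 6.52, 6.37, 7.14, 6.36 and 6.85 on control arrays. The groups did not overlap, and control arrays 3 and 5 were again the highest. Its difference was -0.65 ± 0.17 (SE; limma, adjusted p = 0.0216), and it was called with any 1 array left out (limma, adjusted p at most 0.0498). Without control arrays 3, 4 and 5 the difference was -0.44 (limma, adjusted p = 0.146). The BAF ATPase gene smarca4a had a difference of 0.25 ± 0.36 (SE; limma, adjusted p = 0.604), with control array 4 at 6.95 and the other control arrays between 8.09 and 8.48.

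Probe sets of a gene did not always give the same call. A second probe set of chd7, named after its values were seen, was higher by 0.84 ± 0.10 on the log2 scale (standard error; limma, adjusted p = 0.00169), at 6.99 ± 0.13 in CREB fish and 6.15 ± 0.11 in the controls (SD, n = 5 each), while the brighter one, which stands for the gene, differed by 0.11 and did not pass. For arid3b, also named after its values were seen, the brightest probe set had a difference of -0.84 that did not pass, and both others were higher, by 0.44 and 0.65 (limma, adjusted p = 0.0253 and 0.00584). A dim probe set of ezh2 was higher by 0.35 (limma, adjusted p = 0.0128) at mean signals of 3.88 and 3.53 in CREB and control fish, both below the highest level of the tag control probe sets (4.46), and its other probe set differed by -0.19. Of the 76 genes 20 had several probe sets.

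The copies of a gene were compared in 7 pairs by the difference between the a and b signals on each array, tested two-sided by exact permutation of the arrays. No pair passed after adjustment over the 7 pairs, but a single changed pair could not have passed at any size, since the smallest p the design allows is 0.0556 after that adjustment. The a signal minus the b signal also holds the brightness of each probe set, so only its change between groups can be read. For smarcb1 it was 2.77 ± 0.17 in CREB fish and 1.96 ± 0.24 in controls (SD, n = 5 each), a change of 0.81. Its exact permutation p was 0.00794, the smallest that 5 against 5 allows (adjusted p = 0.0556). For cbx1 it was 2.48 ± 0.20 in CREB fish and 2.78 ± 0.14 in controls (SD, 5 fish per group), with an exact permutation p of 0.0397 (adjusted p = 0.139). The bmi1 copies, both lower, differed in their change by -0.13 (exact permutation p = 0.516, adjusted p = 0.903).

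Genes of the same machinery that the symbols do not cover were taken from 5 lists of partners. Of 125 listed genes 72 were measured, 9 were lower and 13 higher (12.5% and 18.1%, beside 9.09% and 19.3% of all genes), and the median log2 difference was -0.02. Among 12 Polycomb partners 1 was lower (8.33%, near the share of all genes), the Ring ubiquitin ligase gene rnf2. It averaged 7.99 ± 0.17 in CREB fish and 8.56 ± 0.27 in the controls (SD, n = 5 each), a difference of -0.58 ± 0.15 (SE; limma, adjusted p = 0.0198), and control arrays 3 and 5, at 8.99 and 8.69, were above all other arrays. The other partners nearest the threshold were rybpb at 0.29 and the polyhomeotic gene phc2a at -0.67, and neither passed. Mean signals of rybpb, 4.16 in CREB fish and 3.88 in control fish, were below the highest level of the tag control probe sets (4.46). Of 19 other writers 3 were lower and 2 higher (15.8% and 10.5%). The 3 were smyd2a, a lysine methyltransferase gene (-0.89), hat1, which acetylates new histones (-0.85), and uhrf1, which brings Dnmt1 to replicated DNA (-0.97). Their adjusted p (limma) was 0.00357, 0.0138 and 0.0233. Control arrays 3 and 5 were above all other arrays for smyd2a (7.98 and 7.81) and for uhrf1 (9.58 and 9.05). The lowest arrays for hat1 were CREB arrays 3 and 5 (6.38 and 6.84).

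Among 11 acetyl coactivators and bromodomain readers 4 were higher and 2 lower (36.4% and 18.2%, beside 19.3% and 9.09% of all genes), with a median of 0.35. The gene crebbpb, a copy of the acetyltransferase that CREB recruits, averaged 8.13 ± 0.24 in CREB fish and 7.64 ± 0.15 in the controls (SD, n = 5 each), and was higher by 0.49 ± 0.14 (SE; limma, adjusted p = 0.0250). Its groups overlapped. The other copy, crebbpa, differed by 0.33 ± 0.16 and did not pass (SE; limma, adjusted p = 0.125). The bromodomain gene brd2b and the nuclear receptor coactivator gene ncoa2 were higher by 0.57 and 0.47 (limma, adjusted p = 0.0109 and 0.0163). Mean signals of ncoa2 were dim, at 4.73 in CREB fish and 4.27 in control fish, near the highest level of the tag control probe sets (4.46). The list of 17 deacetylase corepressors also holds jmjd6, phf2 and phf8, which encode demethylases or proteins related to them. Of the 17, 5 were higher, jmjd6 and phf2 among them, and 1 was lower (29.4% and 5.88%, beside 19.3% and 9.09% of all genes). For phf8 the difference was -0.29 and did not pass (limma, adjusted p = 0.371). The genes of the NuRD subunits gatad2ab and mta3 were higher by 1.01 ± 0.12 and 0.52 ± 0.13, and that of their partner mbd3a was lower, at -0.54 ± 0.13 (SE; limma, adjusted p = 0.00127, 0.0191 and 0.0140). Of 13 other remodelling subunits 2 were higher and 2 lower (15.4% each, beside 19.3% and 9.09% of all genes). The remodeller subunit gene baz1b was higher by 0.60, and the BAF subunit genes brd9 and actl6a were lower at -0.61 and -0.51 (limma, adjusted p = 0.0100, 0.0181 and 0.0410).

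Control arrays 3 and 5 both lay above all other 8 arrays for 20 of the 76 genes (26.3%), beside 17.4% of all genes. They did so for 6 of 13 Polycomb and chromobox genes, 8 of 21 writers, 3 of 23 erasers and 3 of 19 remodellers. The opposite, with both arrays below all others, held for 9 of the 76 (11.8%) and for 16.2% of all genes. The same arrays had proliferation markers at 8.62 and 8.63, against 6.85 to 7.96 on CREB arrays and 7.44 to 7.82 on the other control arrays. Without control arrays 3, 4 and 5, 62 of the 76 differences had the sign they had over 10 arrays.

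**Figure D4:**
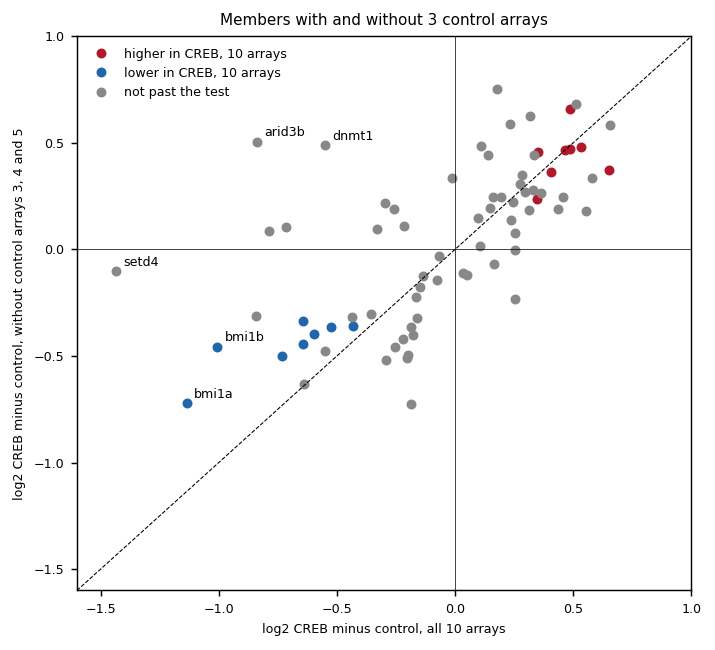
The log2 difference, CREB minus control, of the 76 genes over all 10 arrays, against the same without control arrays 3, 4 and 5. Each point is 1 gene, and points off the diagonal are genes whose value changed when these arrays were left out: setd4 is at -1.43 and -0.10, dnmt1 at -0.55 and 0.49, and bmi1a at -1.13 and -0.72.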

How the data were processed

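RNA (100 ng per fish) was labelled with biotin for Affymetrix zebrafish arrays, per the labels' protocols. The authors' deposited table holds 15617 probe sets, and its log2 unit was read from the values. How the authors summarised and normalized the probes: not given in the sources used here. After 115 control probe sets were set aside, 15502 were tested: 10795 had 1 symbol in the platform annotation (10711 matched a GRCz12tu gene table by gene ID, used for names only), 135 several and 4572 none.

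Groups came from the sample labels. A linear model per probe set was fitted with limma (version 3.58.1, R 4.3.3) to the 5 arrays of each group, without filter or covariate; its moderated two-sided test was adjusted by Benjamini and Hochberg's method over all 15502, and 0.05 was the threshold. The number of arrays limits the precision. Paralogues were compared with an exact permutation test in SciPy 1.17.1; pandas 2.3.3 and matplotlib 3.10.9 were also used. On simulated data with 15502 probe sets, 45% of changes of 1 and 89% of changes of 2 (log2) were recovered, and 5 of 15302 unchanged probe sets were called. The simulated noise was independent between probe sets, and only 100 were changed by each size. Arrays that stand apart were not simulated, so these rates need not hold for the real arrays.

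The members and lists were chosen with earlier results of these data known. Named members were, per class, up to 6 called in each direction with the smallest p, and a set of well-known genes, of which cbx7a, tet2, tet3, sirt1, kdm6bb, kat2a and arid1aa had no probe set with a single symbol. Per partner list, up to 3 with the smallest p were named. The erythroid list (7 measured) had no call in either direction, and of 15 gonad and egg markers and 12 pancreas markers 1 each was lower. Alternatives were a replicate block, a filter on the dimmest 40% of probe sets, 3 scalings, a trended robust variance, array weights, left-out arrays, averaging each gene's probe sets and updated symbols. The proliferation covariate was added after seeing the data.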

Additional observations from a re-analysis of the deposited data

Results flagged for a closer look

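Groups of 5 arrays were checked for the named genes and for the mean levels of all members and of each class, 64 in all. In 5 of them, all from named genes, 1 array lay apart. Its distance from its nearest neighbour was a larger share of the group's range than Dixon's critical value for 5 samples. Chance gives about 1 in 20. For kat7b, CREB array 1 stood at a log2 signal of 7.687 and the other CREB arrays at 7.555 to 7.589. For sirt6, control array 3 stood at 7.49 and the others at 6.472 to 6.74. For chd4a, control array 3 stood at 7.784 and the others at 7.855 to 7.875. For smarca4a, control array 4 stood at 6.946 and the others at 8.086 to 8.481. For cbx6b, control array 3 stood at 4.653 and the others at 4.894 to 4.992.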

How the results depend on the processing

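Counts are given as lower and higher. Over all genes, the called shares were 5.12% and 10.4% with a replicate block and 9.27% and 12.1% without the dimmest 40% of probe sets. They were 8.70% and 20.3% with the trended robust variance, 12.2% and 23.5% with array weights and 9.11% and 19.3% with the mean of probe sets. With 1 array left out they were 5.31% to 10.6% and 13.3% to 21.1%, and for the other fits they stand in the results above. The 8 and 8 members called were 4 and 0 with a replicate block, 7 and 1 without the dimmest 40% of probe sets, 9 and 5 with quantile scaling, 10 and 1 with median scaling, 9 and 2 with cyclic loess, 8 and 4 with the trended robust variance, 9 and 9 with array weights, 7 and 7 with the mean of probe sets, 0 and 0 without control arrays 3, 4 and 5, 2 and 2 without CREB arrays 3 and 5, and 0 and 2 with the proliferation covariate. With 1 array left out they were 3 to 9 and 1 to 6: 0 to 4 and 0 to 2 for writers, 0 to 3 and 1 to 4 for erasers, 0 to 2 higher for remodellers and 0 to 1 higher for Polycomb genes. By class (writers, erasers, remodellers, Polycomb), the lower counts of 2, 2, 1 and 3 were 1, 0, 0 and 3 with the block, 0, 0, 0 and 2 without CREB arrays 3 and 5, and 2, 1, 1 and 3 without dim probe sets. The higher counts of 2, 4, 1 and 1 were 0, 0, 0 and 0, then 0, 2, 0 and 0, then 0, 1, 0 and 0 in the same order; they were 0, 3, 1 and 1 with quantile, 0, 1, 0 and 0 with median and 0, 1, 1 and 0 with cyclic loess scaling. With the trended robust variance 1 eraser was lower and 1, 2, 0 and 1 genes were higher, with array weights 2 Polycomb genes were higher, and with the mean of probe sets 1 eraser was lower and 1 writer higher. With the covariate 2 erasers were higher and no other class had a call. Both kmt2a and cbx6b fell under the filter on dim probe sets and have no value there. The labels do not say whether the numbers 1 to 5 pair the arrays. Deviations from the group mean correlated at -0.02 to 0.27 between arrays of the same number, with the own number best for 1 of 5. Such correlations cannot exclude a pairing. The block was kept as an alternative, and bmi1a, bmi1b, cbx1a and kmt2ba passed with it. The median log2 difference was -0.0875 over all members and 0.0633 over erasers with cyclic loess, 0.0527 over erasers with array weights, and 0.1781, 0.094 and -0.0549 over all members, writers and Polycomb genes with the covariate. Among named genes that did not pass, signs reversed as follows. Without control arrays 3, 4 and 5 the differences of dnmt1, suz12a, eed and smarca4a were 0.4895, 0.1898, 0.0956 and -0.0009. With the covariate those of dnmt1, suz12a, eed and setdb1b were 0.8785, 0.352, 0.2196 and 0.0584. That of suz12a was 0.0386 with array weights, that of cbx5 0.02 without CREB arrays 3 and 5, that of smarca4a -0.009 with the mean of probe sets, and that of the kdm5b pair 0.0548 with quantile scaling. With 1 array left out setdb1b ranged from -0.4116 to 0.0402, smarca4a from -0.0134 to 0.4819, and the chd4, kdm5b and setdb1 pairs from -0.1357 to 0.0654, -0.4063 to 0.1738 and -0.2197 to 0.1666. None of the 16 called genes reversed under any of these alternatives. Part of this was fixed in advance: for the 12 whose groups did not overlap, leaving out arrays could not reverse the sign. Apart from the fits with 1 array left out, named genes were compared with their main values 322 times. These include the fits without control arrays 3, 4 and 5 and without CREB arrays 3 and 5. In 215 the gene was on the same side of the threshold with the same sign. Part of the 215 was fixed in advance: the updated symbols use the main fit, so the values are the same. The replicate block, the filter on dim probe sets and the trended robust variance leave every difference that they fit unchanged, so no sign could reverse there. The call was lost in 91 and gained in 5, and the sign reversed in 11. Only the 16 called genes had a call to lose, so all 91 losses were theirs. The 215 also hold named genes that were not called in the main fit. The cause of these changes was not tested.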
